A study of Mus musculus with 3 samples.

Results

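Efferocytosis, the clearance of dying cells by phagocytes, was followed here through 9 genes in macrophages of the mouse colon. Of these, 6 encode receptors (Timd4, Mertk, Axl, Itgav, Cd36 and Lrp1) and 3 encode bridging proteins (Gas6, Pros1 and Mfge8). The genes were taken by symbol from a table of 23997 genes, and all 9 had a row. The libraries came from untreated male C57BL/6 mice, given as 9 weeks old in one place and 8.9 weeks in another. WT mice carried Lyz2-Cre alone, a Cre recombinase expressed from the lysozyme locus of myeloid cells. Tle3cKO mice were Tle3f/f Lyz2-Cre and Tle4cKO mice were Tle4f/f Lyz2-Cre, so every animal carried the Cre. TLE3 and TLE4 are corepressors of the Groucho family, which bind no DNA themselves and are brought to genes by other factors. Siglec-F-negative, Ly6C-low, CD64-positive cells were pooled from 4 WT, 3 Tle3cKO and 4 Tle4cKO mice, giving 1 library per genotype. There are no replicates, so no difference below has a test, an SE or a measured spread.

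A dying cell turns phosphatidylserine, a lipid normally kept on the inner face of the membrane, to its surface. Some phagocyte receptors bind that lipid directly, and others bind it through soluble bridging proteins. The TAM kinases TYRO3, AXL and MERTK use the vitamin K-dependent proteins GAS6 and protein S (Pros1), and alpha-V integrins use MFG-E8. Gut macrophages meet dying epithelial cells and leukocytes throughout life, and uptake by them is known for limiting inflammation.

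The values are FPKM, a read-out of fragments that is corrected for transcript length and library size, so levels can be set side by side between genes. The totals were between 569961 and 610714 FPKM. Depth relative to WT, read from the smallest steps in FPKM of barely detected genes, was 1.21 in Tle4cKO and 0.969 in the library labelled Tle3cKO. Tle3 was not lower where it was targeted. Its level was 38.6 FPKM in WT, against 70.7 for the library labelled Tle3cKO and 46.9 for the Tle4cKO library. A gene-level value need not fall when only some exons are removed, but every direction given for that library rests on a label that this value did not bear out. Tle4 stood at 5.80 FPKM in Tle4cKO, below the 8.50 of WT. The sorted cells carried macrophage genes: across the libraries Emr1, which encodes F4/80, lay between 143 and 150.4 FPKM, Csf1r between 387 and 459, and Fcgr1, which encodes CD64, between 33.3 and 39.2. Cx3cr1, another macrophage gene, was lower, between 7.64 and 11.4 FPKM. Lyz2 lay between 10.4 and 11.7 FPKM, but it has a near-identical neighbour, Lyz1, so its row is uncertain. The row for Siglec-F (Siglec5) lay between 2.07 and 2.90 FPKM and Ly6c2 between 5.98 and 9.38, low but not absent.

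The 9 genes kept a single order of level in all 3 libraries. Cd36 was highest, followed by Axl, Lrp1, Itgav, Timd4, Mfge8, Gas6, Pros1 and Mertk. The ranges over the libraries separated Cd36 from Axl, Axl from Lrp1, Gas6 from Pros1 and Pros1 from Mertk. They overlapped for Lrp1 and Itgav, Itgav and Timd4, Timd4 and Mfge8, and Mfge8 and Gas6. Cd36 and Axl together made up 59.3% of the summed FPKM of the 9 genes in WT, against 49.9% for the library labelled Tle3cKO and 54.5% for the Tle4cKO library. Among the 11114 genes that averaged 1 FPKM or more, which all 9 did, Cd36 exceeded 95.8% in WT and Mertk only 28.5%.

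**Figure D1:**
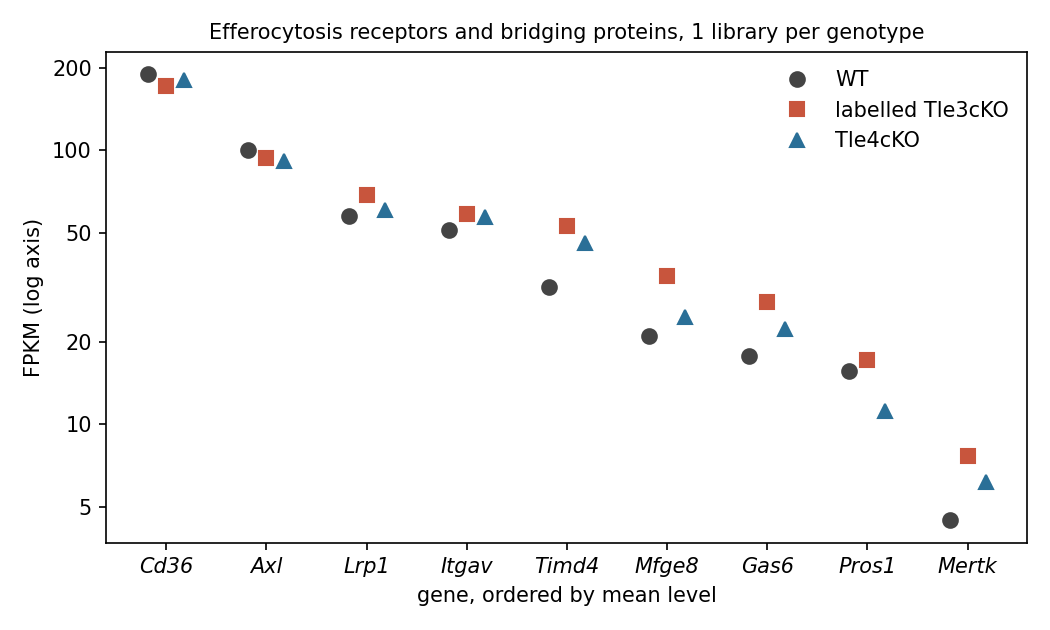
FPKM of the 9 genes (log axis) in each of the 3 libraries, with 1 point per library and no error bars because each genotype is 1 library. Timd4, Mfge8, Gas6, Mertk, Lrp1 and Itgav were lowest in WT and highest in the library labelled Tle3cKO, while Cd36 and Axl were highest in WT.

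Differences between libraries are given as log2 ratios of FPKM + 1 and were counted at 1.5-fold, a log2 ratio of 0.585 in size. In the library labelled Tle3cKO, 4 of the 9 genes were at least 1.5-fold above WT and none was 1.5-fold below it. The 4 were Timd4, Mfge8, Mertk and Gas6, that is, 2 receptors and 2 bridging proteins. With a pseudocount of 5 in place of 1 the count was 2, without Mertk (0.42) and Gas6 (0.53), and at a 2-fold threshold it was 0. Of the 11114 genes, 1.59% passed above WT and 1.09% below it at the main setting of 1.5-fold and a pseudocount of 1. These were 177 and 121 genes, or 260 and 82 with the libraries scaled to equal totals. The matching numbers were 36 and 31 with the pseudocount of 5, and 24 and 23 at the 2-fold threshold. The median log2 ratio of the 9 was 0.25, beside -0.01 over all genes. Above WT were 7 of the 9, against 47.6% of all genes. In Tle4cKO no member was 1.5-fold from WT in either direction, where 1.21% of all genes were higher and 1.7% lower by that much. The median was 0.15, beside -0.003 for all genes, with 6 of 9 above WT, against 49.4% of all genes. Both comparisons use the same WT library, so a low or high value in WT enters both. Tle4cKO set directly against the library labelled Tle3cKO had a median of -0.21, beside 0.01 for all genes. There 8 of 9 genes were lower and 1 was higher, where 52.4% of all genes were higher. None of these 9 reached 1.5-fold, against 0.891% of all genes higher and 2.14% lower, though Pros1 came just short at -0.58. Pros1 was past 1.5-fold with a pseudocount of 0.1 and with each of 4 other scalings of the libraries (-0.64 to -0.59).

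**Figure D2:**
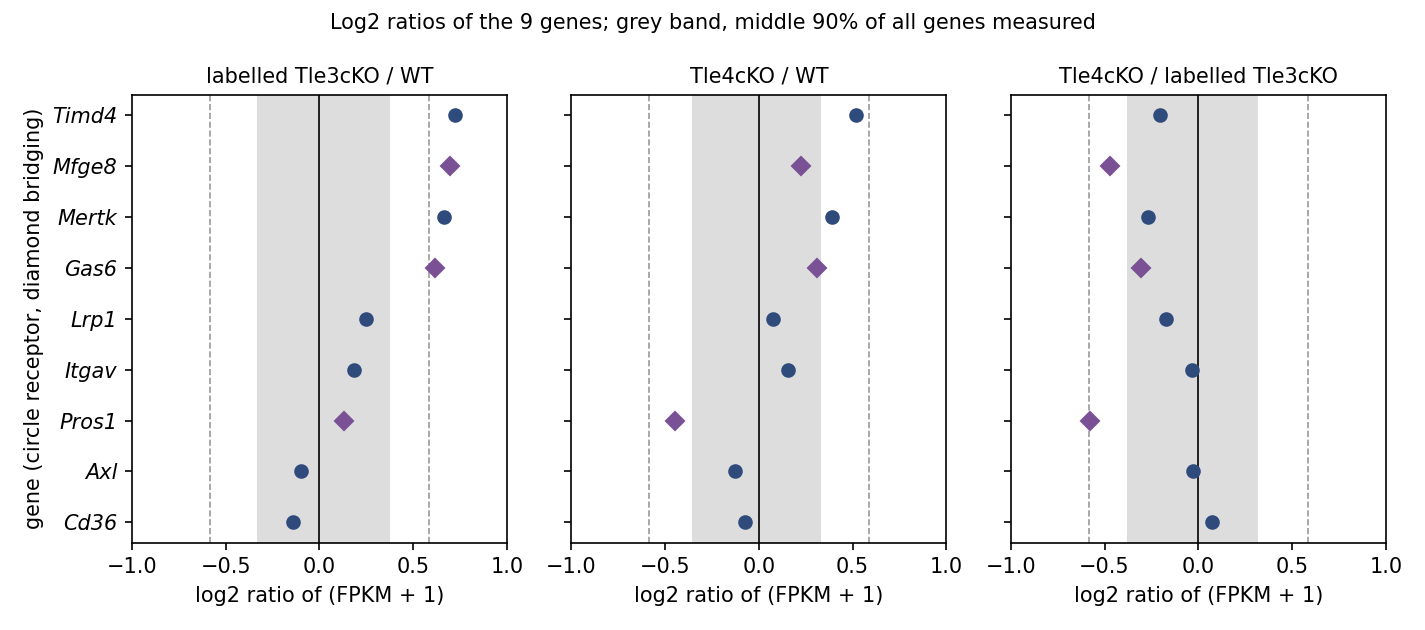
Log2 ratios of FPKM + 1 for the 9 genes in the 3 comparisons, with circles for receptors, diamonds for bridging proteins, dashed lines at 1.5-fold and a grey band over the middle 90% of all 11114 genes. In the first panel Timd4, Mfge8, Mertk and Gas6 lie past the dashed line, and in the others no gene does.

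Among the receptors, Timd4 had the largest log2 ratio of FPKM + 1 in both comparisons with WT. It encodes TIM-4, which binds phosphatidylserine directly and tethers the dying cell, and which marks macrophages that stay in the tissue for long. WT held 31.8 FPKM of Timd4 (ENSMUSG00000055546.6, mm10 chromosome 11, 46810800 to 46844332), the library labelled Tle3cKO 53.0 and the Tle4cKO library 45.9. Both other libraries lay above WT, with log2 ratios of 0.72 and 0.52. The first was the 93rd highest of 11114 genes and the second the 188th.

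Mertk, a TAM kinase through which macrophages take up cells coated with GAS6 or protein S, was the least abundant of the 9. Its row (ENSMUSG00000014361.5, chromosome 2, 128698956 to 128802894) read 4.46 FPKM in WT, against 7.65 for the library labelled Tle3cKO and 6.17 for the Tle4cKO library. The order of the libraries was that of Timd4, and the log2 ratios to WT were 0.66 and 0.39. At so low a level the added 1 FPKM shrinks the ratio: FPKM alone gave 1.71-fold and 1.38-fold. The Timd4 to Mertk ratio of FPKM was 7.12 in WT, against 6.93 for the library labelled Tle3cKO and 7.44 for the Tle4cKO library, so these receptors kept nearly the same proportion. The annotation places an antisense transcript, Gm14011, and a snoRNA, Gm23172, over the Mertk locus, and the sources used here do not say whether strand was used in counting.

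Axl, the TAM kinase that binds GAS6, went the other way by a small amount. The Axl row (ENSMUSG00000002602.16, chromosome 7, 25757273 to 25788705) gave 100.4 FPKM in WT, against 93.6 for the library labelled Tle3cKO and 91.8 for the Tle4cKO library. Those log2 ratios of -0.10 and -0.13 lie inside the middle 90% of all genes, which ran from -0.33 to 0.37 for the first comparison and from -0.35 to 0.33 for the second. Axl made up 95.3% of the summed TAM receptor FPKM in WT, against 92.2% for the library labelled Tle3cKO and 93.5% for the Tle4cKO library. The Axl to Mertk ratio was 22.5 in WT, 12.2 and 14.9 in the same order. Tyro3, the remaining TAM kinase, was close to undetected, between 0.231 and 0.478 FPKM.

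Lrp1 and Itgav were somewhat higher in both other libraries than in WT. Lrp1 encodes a large endocytic receptor that binds calreticulin and many other ligands. It was at 57.5 FPKM in WT, against 68.5 for the library labelled Tle3cKO and 60.6 for the Tle4cKO library (ENSMUSG00000040249.15, chromosome 10, 127538161 to 127621148), with log2 ratios of 0.25 and 0.07. The alpha-V integrin gene Itgav (ENSMUSG00000027087.11, chromosome 2, 83724397 to 83806916) was at 51.2 FPKM in WT, and at 58.4 and 57.1 in the other libraries, with log2 ratios of 0.19 and 0.15. All 4 ratios lie inside the middle 90% of genes. Of the beta partners of Itgav, Itgb5 was at 41.8, 43.7 and 43.8 FPKM (WT first, the library labelled Tle3cKO next, Tle4cKO last), and Itgb3 at 2.18, 2.67 and 2.97. Antisense or non-coding transcripts overlap both Lrp1 (Gm16217) and Itgav (Gm13684).

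Cd36, a scavenger receptor for oxidised lipids that takes part in uptake together with alpha-V integrins and thrombospondin, was the most abundant of the 9 and among the least different. Its 3 values were 190.3 FPKM in WT, against 172 for the library labelled Tle3cKO and 181 for the Tle4cKO library (ENSMUSG00000002944.15, chromosome 5, 17781690 to 17888801). The log2 ratios to WT were -0.14 and -0.07. Cd36 is also a gene of fat cells, whose markers Adipoq, Plin1 and Lep were listed at 0 in every library. Fabp4, a lipid-binding protein of fat and endothelial cells and of macrophages, was detected, at 7.75, 10.1 and 8.27 FPKM (WT first, the library labelled Tle3cKO next, Tle4cKO last).

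All 3 bridging proteins were higher in the library labelled Tle3cKO than in WT. Their median log2 ratio was 0.62, the value of Gas6, with Pros1 at 0.13, while the 6 receptors had a median of 0.22. Their summed FPKM was 54.5 in WT, against 79.8 for the library labelled Tle3cKO and 58.3 for the Tle4cKO library. Mfge8 encodes MFG-E8, which joins phosphatidylserine to alpha-V integrins. This gene (ENSMUSG00000030605.15, chromosome 7, 79133768 to 79149060) was at 21.02 FPKM in WT, against 34.7 for the library labelled Tle3cKO and 24.7 for the Tle4cKO library. The log2 ratios were 0.70, the 105th highest of all genes, and 0.23. Mfge8 in Tle4cKO thus stood nearer to WT than to the library labelled Tle3cKO, to which its log2 ratio was -0.47.

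Gas6 and Pros1, the ligands of the TAM kinases, did not share a pattern. Gas6 (ENSMUSG00000031451.6, chromosome 8, 13465374 to 13494490) had 17.8 FPKM in WT, against 27.9 for the library labelled Tle3cKO and 22.3 for the Tle4cKO library, with log2 ratios of 0.62 and 0.31. The order was again WT lowest and the library labelled Tle3cKO highest. The gene Tmem255b, which overlaps Gas6 on the opposite strand, was at no more than 0.519 FPKM. Pros1 (ENSMUSG00000022912.8, chromosome 16, 62854307 to 62929346) was near its WT level of 15.6 FPKM in the library labelled Tle3cKO, at 17.2, but at 11.2 in Tle4cKO. Of the 9 genes it had the lowest ratio of Tle4cKO to WT, a log2 ratio of -0.45, the 319th lowest of all genes. The Gas6 to Pros1 ratio was 1.14 in WT, against 1.62 for the library labelled Tle3cKO and 1.996 for the Tle4cKO library. Their summed FPKM was 33.5 in WT and 33.5 in Tle4cKO, against 45.1 in the library labelled Tle3cKO.

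The 250 bases before the RefSeq start are shown for the 4 genes that passed 1.5-fold and, for contrast, for Pros1, whose ratio to WT differed in sign between the 2 comparisons. Sequences are from RefSeq on GRCm38.p6, the assembly also called mm10, and read 5′ to 3′ on the gene's strand. Capitals mark matches on either strand to TGTGGT (the core of RUNX sites), CTTTGA (TCF/LEF), CACGTG (HES and other E-box factors), TGCTGA (a MAF half-site), GGGCGG (the GC box) or TATAAA. RUNX, TCF/LEF and HES factors are known partners of Groucho corepressors.
Timd4 (chr11:46810549-46810798, plus strand): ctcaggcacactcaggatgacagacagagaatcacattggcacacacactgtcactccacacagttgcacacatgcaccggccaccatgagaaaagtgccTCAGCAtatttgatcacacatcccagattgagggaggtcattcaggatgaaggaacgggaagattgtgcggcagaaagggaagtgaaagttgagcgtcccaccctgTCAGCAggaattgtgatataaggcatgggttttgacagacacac
Mertk (chr2:128698665-128698914, plus strand): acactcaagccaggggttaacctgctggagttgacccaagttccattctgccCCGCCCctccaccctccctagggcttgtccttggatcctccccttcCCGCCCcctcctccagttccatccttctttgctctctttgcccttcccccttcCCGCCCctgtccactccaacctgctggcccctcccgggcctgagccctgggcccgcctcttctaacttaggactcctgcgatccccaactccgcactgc
Mfge8 (chr7:79149061-79149310, minus strand): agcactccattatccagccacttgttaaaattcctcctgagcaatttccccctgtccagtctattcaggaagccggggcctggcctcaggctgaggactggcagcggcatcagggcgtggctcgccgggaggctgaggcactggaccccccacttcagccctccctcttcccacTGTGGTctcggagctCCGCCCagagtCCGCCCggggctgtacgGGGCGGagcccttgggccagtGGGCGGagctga
Gas6 (chr8:13494536-13494785, minus strand): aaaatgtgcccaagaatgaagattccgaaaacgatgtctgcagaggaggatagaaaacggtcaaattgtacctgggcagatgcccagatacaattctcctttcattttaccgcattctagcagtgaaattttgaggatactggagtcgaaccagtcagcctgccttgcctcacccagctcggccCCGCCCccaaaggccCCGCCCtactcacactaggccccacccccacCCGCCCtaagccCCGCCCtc
Pros1 (chr16:62854057-62854306, plus strand): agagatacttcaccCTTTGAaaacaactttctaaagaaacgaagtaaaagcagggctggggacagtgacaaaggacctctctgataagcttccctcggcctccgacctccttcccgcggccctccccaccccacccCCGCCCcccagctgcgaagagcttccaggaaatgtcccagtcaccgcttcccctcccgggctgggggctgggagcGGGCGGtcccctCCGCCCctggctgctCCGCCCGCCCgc

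Promoters of all 9 genes were found in RefSeq. That of Cd36 (chr5:17835897-17836146, minus strand) lies inside the annotated gene, which ends at 17888801, so it precedes an internal start. The RUNX letters occurred in 1 of the 9, Mfge8, at 76 bases before the start, and in 14.0% of 32841 mouse promoters of the same length. TCF/LEF letters occurred in Pros1 alone, at 236 bases before the start, and in 13.8% of all promoters. The MAF half-site was in Cd36 and at 2 places in Timd4, 150 and 44 bases before the start, and in 16.1% of all promoters. GC boxes were in 7 of the 9 promoters, all but Timd4 and Itgav, against 32.7% of all promoters. Mertk had 3 of them, Mfge8 and Gas6 4 each, and Pros1 5, of which a pair overlapped each other. These shares were not matched for GC content. Its median over all promoters was 52.4%, and all of the 9 but Cd36 (43.2%) and Timd4 (50%) were above that, up to 67.2% in Lrp1. CACGTG (6.02% of all promoters) and TATAAA (12.4%) were in none of the 9. No single motif of those searched was shared by Timd4, Mertk, Mfge8 and Gas6. These matches describe the letters of a short window and show no binding.

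Other genes of apoptotic cell uptake were examined as a list of 99 genes in 8 roles, of which 89 averaged 1 FPKM or more. In the library labelled Tle3cKO, 3 of the 89 were at least 1.5-fold above WT and none below, and the median log2 ratio was -0.05, with 33 higher and 56 lower. Tle4cKO had none above and 3 below by that much, with a median of 0.002. Tle4cKO against the library labelled Tle3cKO had none above and 3 below (Cyr61, Edil3 and Gulp1), with a median of 0.05.

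Other bridging proteins and opsonins held most of the larger differences. The 2 of 13 past 1.5-fold above WT in the library labelled Tle3cKO were Ctgf and Anxa1. Ctgf, a matricellular protein, was at 11.2 and 21.3 FPKM, and at 15.3 in Tle4cKO. Anxa1, an annexin found on dying cells, was at 97.9 and 153 FPKM, and at 119.8 in Tle4cKO. In Tle4cKO the 2 past 1.5-fold below WT were Cyr61, a matricellular protein (67.0 FPKM in WT and 33.3 in Tle4cKO), and the complement gene C4b (21.8 and 13.7), whose near-identical copy C4a makes its row uncertain. Cyr61 stood at 71.1 FPKM in the library labelled Tle3cKO, so its low value was seen in Tle4cKO alone of these libraries. The C1q genes, whose product coats dying cells, were named after their values were seen. C1qb was at 1443 FPKM in WT, against 1191 for the library labelled Tle3cKO and 1309 for the Tle4cKO library, and C1qa and C1qc were likewise highest in WT, with log2 ratios between -0.28 and -0.06 for the 3 genes.

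Among the 11 other receptors measured, none was 1.5-fold from WT. Trem2, a lipid-sensing receptor, came nearest in Tle4cKO, at 25.9 FPKM in WT and 38.6 there, a log2 ratio of 0.56, with 30.3 in the library labelled Tle3cKO. Scarb1, a lipoprotein and phosphatidylserine receptor, was at 20.1 FPKM in WT, against 14.2 for the library labelled Tle3cKO and 21.7 for the Tle4cKO library. Of the 7 receptors for the find-me signals that draw phagocytes to dying cells, S1pr1, a sphingosine-1-phosphate receptor, passed 1.5-fold in the library labelled Tle3cKO, with 8.26 FPKM in WT, 13.7 there and 10.8 in Tle4cKO. The nucleotide receptor P2ry12 was at 4.82, 5.92 and 7.28 FPKM in the same order.

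Few genes that act after binding passed 1.5-fold. Among 16 engulfment signalling genes, 1 did: the adaptor gene Gulp1, at 2.79 FPKM in WT, against 2.73 for the library labelled Tle3cKO and 1.40 for the Tle4cKO library. Rhog, a GTPase upstream of RAC1, was at 235, 193 and 216. None of the 16 phagosome maturation genes differed by more than 0.21 (log2) from WT, the largest being Dnase2a, the lysosomal nuclease that digests the DNA of eaten cells, at 40.2, 34.7 and 42.3 FPKM. The 6 genes for vitamin K-dependent carboxylation, receptor shedding and LRP1 folding likewise stayed below 1.5-fold, with Adam17, the MERTK sheddase, at 60.0, 53.6 and 55.4 FPKM and the carboxylase Ggcx at 2.72, 3.09 and 3.49.

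Lipid sensing and efflux genes handle the cholesterol of eaten cells, and none of the 13 measured passed 1.5-fold. Nr1h3 encodes LXR-alpha, a sterol-activated factor known to induce Mertk. Its level was 17.3 FPKM in WT, against 12.8 for the library labelled Tle3cKO and 11.4 for the Tle4cKO library. The log2 ratios were -0.41 and -0.57. Nr1h2, which encodes LXR-beta, was at 48.5, 46.1 and 46.8 FPKM in the same order. Abca1, another cholesterol exporter gene, was at 99.6, 113 and 109. The part of these factors in the values of Mertk was not tested. The cholesterol exporter Abcg1 was at 13.0, 9.24 and 13.5 FPKM in the same order. Among 7 do-not-eat-me genes, Cd24a was at 35.8 FPKM in WT and at 50.5 and 52.3 in the other libraries, and Cd52 at 740.3, 558 and 614, with none past 1.5-fold.

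**Figure D3:**
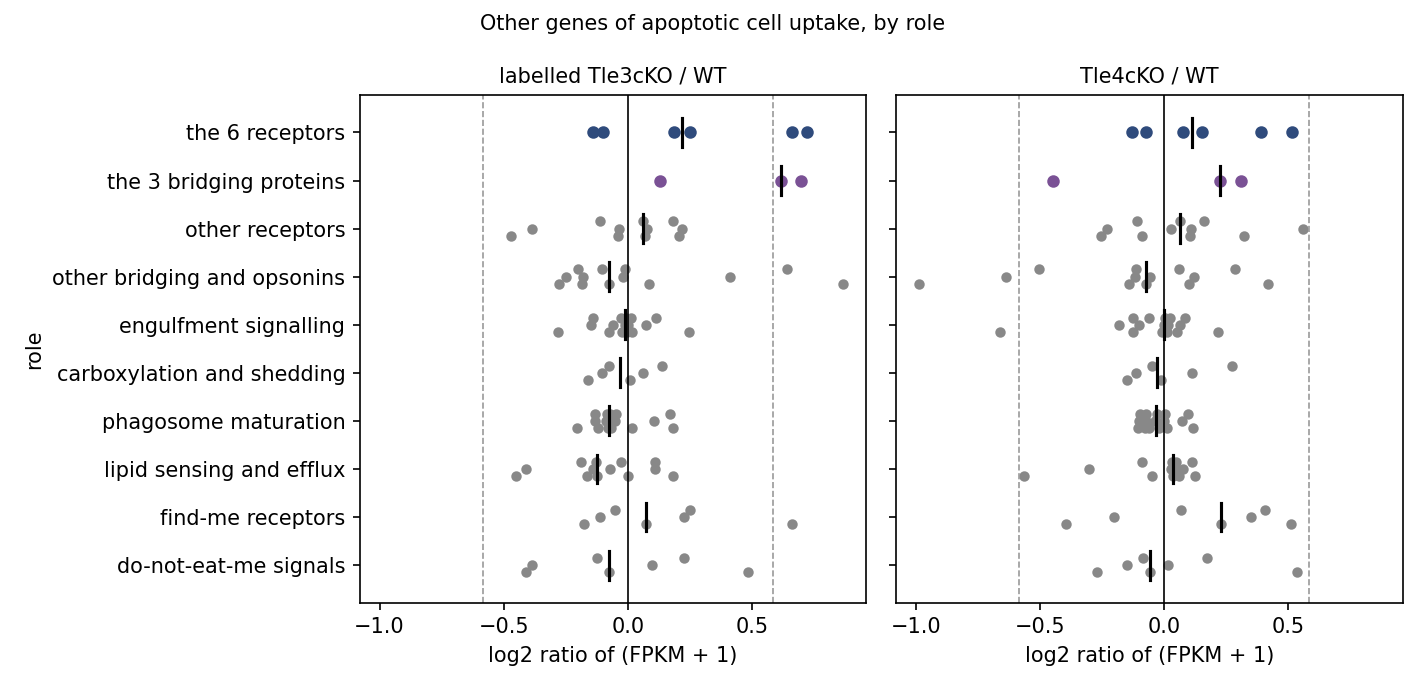
Log2 ratios of FPKM + 1 to WT for the 9 genes (coloured points, top rows) and for 89 other genes of apoptotic cell uptake by role (grey points), with a black bar at each median and dashed lines at 1.5-fold. The median of the 3 bridging proteins is 0.62 on the left, while the medians of the 8 other roles lie between -0.13 and 0.07 there. That 0.62 is the value of Gas6, with Mfge8 at 0.70 and Pros1 at 0.13.

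Some of the 9 genes are also expressed outside macrophages, so markers of other cell types were set beside them. In bulk RNA, more cells of a type and more RNA per cell cannot be told apart. Stromal, endothelial and muscle markers summed to 334 FPKM in WT, against 395 for the library labelled Tle3cKO and 359 for the Tle4cKO library. Of 18 genes, 14 were above WT in the library labelled Tle3cKO, with 6 past 1.5-fold and a median log2 ratio of 0.28. Of all genes, 47.6% were above WT there and 1.59% were past 1.5-fold above it. The 6 were the endothelial genes Cdh5 and Cldn5 and the muscle genes Tagln, Myh11, Des and Cnn1. In WT, Cdh5, Cldn5, Des and Cnn1 were near the filter of 1 FPKM, at 1.31, 1.41, 1.23 and 1.77. Myh11 and Tagln were at 3.35 and 12.7 FPKM. The more abundant Col1a2, Col3a1 and Dcn had log2 ratios of 0.19, 0.14 and 0.36. The 4 below WT were Col1a1, Lum, Pdgfrb and Pecam1, with log2 ratios between -0.39 and -0.005. In Tle4cKO 13 of the 18 were above WT, against 49.4% of all genes, with a median of 0.14. The most abundant of the 18 was the matrix gene Dcn, at 81.8, 105 and 90.4 FPKM, and none of them was at 0. The order of these sums is that of Timd4, Mertk, Gas6 and Mfge8, and also that of Lrp1 and Itgav. The sums of the adipocyte and platelet list, 338, 401 and 346 FPKM, had this order too. Stromal and vascular cells are known to make GAS6 and MFG-E8, and the part of these cells in the values of Gas6 and Mfge8 was not tested.

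Markers of B and plasma cells were higher as well, with all 10 above WT in both other libraries and sums of 235 FPKM in WT, against 289.5 for the library labelled Tle3cKO and 438 for the Tle4cKO library. Xbp1 led the list at 127 FPKM in WT and at 143 for the library labelled Tle3cKO, and Igj, the joining chain of secreted antibodies, led it in Tle4cKO at 192. T, NK and innate lymphoid markers summed to 422, 435 and 415 FPKM, most of it from Il7r, at 332 to 342. Of the 5 that averaged 1 FPKM or more, Cd3e was past 1.5-fold above WT in both other libraries, at 0.401, 1.55 and 1.70 FPKM, and Cd2 in Tle4cKO, at 8.72, 12.6 and 13.6. Epithelial markers summed to 4.31, 9.93 and 47.8 FPKM, with Krt20, Spink4, Tff3 and Slc26a3 listed at 0 in WT, Slc26a3 in the library labelled Tle3cKO and Tff3 in Tle4cKO; Spink4 reached 18.6 in Tle4cKO. Enteric glial markers summed to 40.0, 40.5 and 13.6 FPKM, with Scn7a at 16.0, 15.3 and 5.29. All 5 glial markers that averaged 1 FPKM or more were at least 1.5-fold below WT in Tle4cKO, and none was at 0. Pros1, like the glial markers, was lower in Tle4cKO than in the other libraries, and the part of these cells in its value was not tested.

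Dendritic cell markers summed to 448, 373 and 470.2 FPKM, most of it from Ccr7, at 305, 216 and 316. Of the 11 markers, 4 were above WT in the library labelled Tle3cKO (Flt3, Irf4, Cd209a and Itgae). The other 7, Ccr7 among them, were below, and the median log2 ratio was -0.17. In Tle4cKO 8 were above WT and 3 below, with a median of 0.11. Neutrophil and eosinophil markers summed to 194, 197 and 194 FPKM, with S100a8 at 81.4, 93.5 and 102 and S100a9, in the opposite order, at 84.0, 76.6 and 67.0, and with the eosinophil gene Epx listed at 0 throughout, Elane in WT and Tle4cKO, and Prg2 in WT. The adipocyte and platelet list summed to 338, 401 and 346 FPKM, of which Pf4, a gene that macrophages can also express, gave 305, 372 and 316. Macrophage identity genes summed to 6942 FPKM in WT, against 6304 for the library labelled Tle3cKO and 6526 for the Tle4cKO library, with medians of -0.05 and -0.02 (log2) against WT, beside -0.01 and -0.003 for all genes. In each comparison 6 of the 15 were above WT and 9 below.

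**Figure D4:**
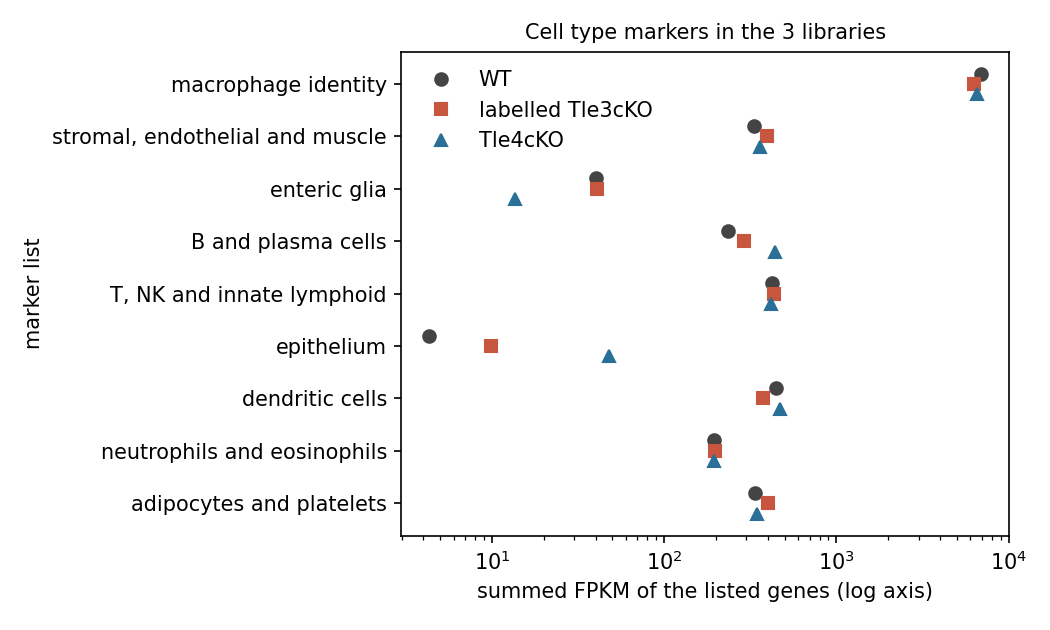
Summed FPKM (log axis) of the marker genes of 9 cell classes, with 1 point per library. The stromal sum is lowest in WT at 334 and highest in the library labelled Tle3cKO at 395, the glial sum is lowest in Tle4cKO at 13.6, and the epithelial sum is highest there at 47.8.

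The genes most like Timd4, Mfge8 and Mertk were sought by the distance between pairs of log2 ratios to WT, over 7420 other genes. These averaged 5 FPKM or more, and Gm, Rik and joined symbols were left out. With 3 libraries this compares only 2 differences per gene, both against the same WT library. Nearest to Mfge8 were F13a1 (distance 0.03), Pmp22, Syne3 and Ifitm1. F13a1, the coagulation factor XIII A subunit, was at 10.6, 17.5 and 12.7 FPKM (WT first, the library labelled Tle3cKO next, Tle4cKO last). Nearest to Mertk were S1pr1 (distance 0.04), Mllt4, Cd37 and Gas6. The ligand gene Gas6 was thus the 4th closest to Mertk of the 7420 genes searched, at a distance of 0.09. That place depends on the pseudocount of 1, the only one used for this search. With a pseudocount of 0.1 the pair lay further apart, at 0.76 and 0.46 for Mertk and 0.64 and 0.33 for Gas6. Axl, which also binds GAS6, had log2 ratios to WT of -0.10 and -0.13. Nearest to Timd4 were Ptprcap (distance 0.04), a lymphocyte gene at 7.98, 13.4 and 11.6 FPKM in the same order, then Ccr6, Aspn and Mllt4.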

How the data were processed

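RNA from sorted colonic macrophages was analysed as 3 libraries, 1 per genotype, grouped by the sample titles. RNA was taken with TRIzol from cells sorted at the same time, and libraries were made with standard Illumina methods, per the labels' protocols. The authors deposited FPKM per gene, per the file headers, with the same 23997 rows in each library. TopHat2 2.1.0, Cufflinks 2.2.1 and mm10 are named in the submitters' processing notes, without their roles. Cufflinks shares reads among similar genes by estimation, so rows of near-identical or overlapping genes are uncertain. The sources used here do not give the number of fragments, so no counting interval is given.

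Log2 ratios of FPKM + 1 were computed over 11114 genes averaging 1 FPKM or more and counted at 1.5-fold. The low-value steps of genes under 0.3 FPKM gave relative depth. Identifiers and positions are from GENCODE M21, and promoters from RefSeq. The 9 genes, the gene lists and the threshold were chosen with earlier results of these data known. Beyond the 9 genes, the text names pathway genes past 1.5-fold, up to 2 per role with the largest ratios, the 4 genes most like each of 3 members, and the most abundant marker of each list; others were named after their values were seen. Alternatives were other pseudocounts, filters, scalings and a 2-fold threshold. The counting step was tested on simulated data. Python 3.11.15, numpy 2.4.6, pandas 2.3.3 and matplotlib 3.10.9 were used.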

Additional observations from a re-analysis of the deposited data

How the results depend on the processing

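Each of the 9 genes kept the direction of its log2 ratio in all 3 comparisons under pseudocounts of 0.1 and 5, no filter, a filter at 5 FPKM and 4 scalings (equal totals, the median ratio over all genes, the upper quartile and the median ratio over macrophage identity genes). The narrowest were Axl in the library labelled Tle3cKO against WT, at -0.0009 with equal totals, and Cd36 in Tle4cKO against that library, at 0.001. The count of 4 genes at least 1.5-fold higher in the library labelled Tle3cKO was 2 with a pseudocount of 5, where Mertk (0.42) and Gas6 (0.53) fell short, and 0 at a 2-fold threshold. In Tle4cKO against the library labelled Tle3cKO, 1 gene, Pros1, was at least 1.5-fold lower with a pseudocount of 0.1 (-0.62) and with each of the 4 scalings (-0.64 to -0.59). The members' medians lay between 0.23 and 0.35, 0.14 and 0.18, and -0.27 and -0.18 in the order of the report. With equal totals the all-gene median was 0.08 in the first comparison, in place of -0.01. Of all genes, 177 and 121 were 1.5-fold higher and lower in that comparison, 134 and 189 in Tle4cKO against WT, and 99 and 238 in Tle4cKO against the library labelled Tle3cKO. In the same order these were 372 and 233, 265 and 325, and 190 and 394 with a pseudocount of 0.1, then 36 and 31, 29 and 48, and 29 and 51 with one of 5. With a filter at 5 FPKM they were 65 and 56, 58 and 76, and 44 and 80, of 7655 genes in place of 11114. At 2-fold they were 24 and 23, 18 and 54, and 23 and 58, of 11114. No filter gave 235 and 181, 207 and 249, and 169 and 304, of 23997 genes. No paired analysis was possible because each genotype has 1 library, and no library could be left out. Depth in fragments is unknown, which limits Mertk and the other genes of a few FPKM most.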

Other observations

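Within the marker lists a few genes outside apoptotic cell uptake stood apart from their lists; they are named after their values were seen. Cd163, the haemoglobin scavenger receptor of resident macrophages, was at 2.92 FPKM in WT, against 8.98 for the library labelled Tle3cKO and 5.94 for the Tle4cKO library, so WT was lowest, as for Timd4 and Mertk. It was the only one of the 15 macrophage identity genes past 1.5-fold in either comparison with WT. Sirpb1a, a SIRP-family receptor, had 10.6 FPKM in WT, against 3.98 for the library labelled Tle3cKO and 3.47 for the Tle4cKO library, so WT was highest. Itgae, the alpha-E integrin of mucosal dendritic and T cells, was at 8.74, 10.5 and 15.1 FPKM in the same order of libraries.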
